A study of Drosophila melanogaster with 3 samples.

Results

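The genes of the spliceosome, the machine that removes introns from pre-mRNA, were examined in a chromatin immunoprecipitation and sequencing (ChIP-seq) experiment on the forkhead transcription factor Jumeau. Members were the protein-coding genes of the Ensembl annotation whose symbol begins with Sm, LSm, Prp, U2af, Sf3a, Sf3b or snRNP- in the usual form for spliceosome proteins, and 32 of 13945 protein-coding genes met this rule. The rule itself uses symbols and no measured value. The samples were whole embryos of 0 to 24 hours, males and females together, from the strain jumu-MiMIC-GFP, in which an eGFP exon placed in an intron of jumu gives a Jumeau-eGFP fusion protein. An antibody against GFP precipitated chromatin sonicated to 200 to 800 bp. All 3 biological replicates carried the fusion and formed 1 group, with no untreated, untagged or input sample analysed here, so a peak here is an enrichment in which binding, the antibody and open chromatin cannot be told apart. Whole embryos of mixed age average every cell type and stage.

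The spliceosome is built from small nuclear ribonucleoproteins (snRNPs), each a small nuclear RNA (snRNA) with its proteins. U1 recognises the 5′ splice site, the U2AF dimer and the U2 particle with its SF3a and SF3b subcomplexes recognise the 3′ splice site and the branch point, and the tri-snRNP of U4, U6 and U5 then joins and is rearranged into the catalytic form. Sm proteins form the ring on most of these snRNAs, and LSm proteins form the related ring on U6. Every intron-bearing gene of the embryo depends on this machine, so its genes count as broadly used rather than as genes of one tissue. Of the 32 genes, LSm1 is known from the cytoplasmic LSm ring, which works in mRNA decay and not in splicing.

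Of the 32 spliceosome genes, 11 (34.4%, 95% Wilson interval 20.4 to 51.7%) were bound, meaning that a peak of the authors' optimal list had its summit within 1 kb of an annotated start site of the gene. The share over all protein-coding genes was 22.4%, inside that interval. The peaks were modest: only Sf3b6 had a signal at or above the median of the optimal list. All 11 summits lay upstream of the spliceosome gene, against 83.6% of all bound genes. They lay between its start and a start of a neighbour transcribed the other way, against 54.3%. By annotation 9 of them were intergenic, and no share over all bound genes is given for this. Signal is the authors' own value per peak from their peak caller, and it ranks peaks within a list only.

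The summit base with 50 bases on either side is printed for 5 of the 6 bound genes whose own start site was the nearest of all genes; that of SmD3 is not shown. They are shown because they surround the called summits at these promoters. Each of the 5 peaks was called 420 bp wide with the summit at its centre. A pile-up of DNA at these bases was therefore not measured here. Each reads 5′ to 3′ on the strand of the spliceosome gene, from the RefSeq genome of the dm6 assembly, at chr3L:6193207-6193307 for Sf3b6, chr3L:15158787-15158887 for Prp31, chr3R:17002388-17002488 for Sf3a1, chr2L:568208-568308 for Sf3b1 and chr2L:10426584-10426684 for SmB. Capitals mark the short words that were searched on both strands and are spelled out with their counts further on, so that a capital stretch can be the reverse complement of a word. In the SmB window, the start site of SmB is base 58.
Sf3b6: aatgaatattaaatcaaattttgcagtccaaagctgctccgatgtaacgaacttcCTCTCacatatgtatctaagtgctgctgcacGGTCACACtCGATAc
Prp31: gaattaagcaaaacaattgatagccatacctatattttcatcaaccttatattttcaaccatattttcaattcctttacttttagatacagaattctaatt
Sf3a1: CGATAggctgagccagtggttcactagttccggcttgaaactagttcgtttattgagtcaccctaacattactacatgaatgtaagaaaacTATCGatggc
Sf3b1: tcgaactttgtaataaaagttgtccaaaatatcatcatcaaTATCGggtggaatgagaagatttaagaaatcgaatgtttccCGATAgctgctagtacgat
SmB: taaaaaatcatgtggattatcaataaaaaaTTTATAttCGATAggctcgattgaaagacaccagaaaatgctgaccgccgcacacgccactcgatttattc
CGATA is in 4 of the 5 windows, and it was added to the words because of them. The Prp31 window holds none of the words and is the poorest in G and C at 24.8%, whereas the Sf3b6 window carries 3 of them, 2 of which lie 1 base apart. Sf3a1 and Sf3b1 each carry the word CGATA once on either strand.

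The branch point and U2 group held 4 bound genes of 10, and among them the strongest peak. Sf3b6 encodes an SF3b subunit whose human counterpart contacts the branch point. Its peak, chr3L:6193047-6193466, had a signal of 231.6 and ranked 1303 of 3845 optimal peaks, with the summit 78 bp upstream of Sf3b6 and 223 bp from Tnpo, which encodes a nuclear import receptor. Replicates were put on 1 scale by taking the matched peak in each over the median of all optimal peaks matched there. This relative signal of Sf3b6 was 1.01, 1.54 and 1.30 in replicates 1, 2 and 3, a mean of 1.28 ± 0.27 (SD, n = 3). No replicate put Sf3b6 below its median, and each of the other 10 bound genes fell below the median in at least 1.

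Sf3a1, an SF3a subunit, had a peak of signal 171.3 at chr3R:17002228-17002647, with its summit 83 bp upstream of Sf3a1 and 437 bp from the catalase gene Irc. Its relative signal was 1.13, 0.71 and 0.75 in replicates 1, 2 and 3. Sf3b1, the scaffold of SF3b, had a peak of signal 153.9 at chr2L:568048-568467, 82 bp upstream of its own start and 137 bp from Nle, with relative signals of 0.99, 0.67 and 0.96. Both genes were thus near the replicate's median in replicate 1 and lower in replicate 2. U2af50, the large subunit of U2AF, had a peak of signal 147.1 at chrX:16359010-16359429. Its relative signal was 0.94 in replicate 1 and 0.58 in replicate 3, and replicate 2 listed no summit within 100 bp. It was the only bound gene without a match in every replicate, and its mean of 0.76 ± 0.26 (SD, n = 2) rests on 2 of them. The summit lay 181 bp from U2af50 but 54 bp from a start of PIG-Q, a gene of glycolipid anchor synthesis, inside the 5′ UTR of PIG-Q, which also has a start 104 bp from U2af50. The other 6 genes of the group had weaker pooled peaks only: Sf3b2 at 90.2, the small U2AF subunit U2af38 at 75.8, Sf3a2 at 69.1, Sf3b3 at 62.1, Sf3b5 at 55.9 and the helicase gene Prp5 at 40.6.

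Among the tri-snRNP genes, Prp31 and Prp3, which encode proteins of the U4/U6 particle, were bound, 2 of 6 genes. Prp31 had the strongest peak after Sf3b6, signal 180.1 at chr3L:15158627-15159046, almost midway between its own start at 263 bp and that of the mismatch repair gene Msh6 at 275 bp. Its relative signal of 0.81, 0.91 and 0.89 varied least of all, a mean of 0.87 ± 0.053 (SD, n = 3). Prp3 had a peak of signal 139.6 at chr3L:19910018-19910437, and its relative signal of 0.74, 0.37 and 1.24 spread widely over the replicates. Prp3 and Mi-2, which encodes a chromatin remodelling ATPase, start only 85 bp apart, and the summit lay 13 bp from Mi-2 and 72 bp from Prp3. Prp8, the scaffold of the catalytic core, had a pooled peak of 84.3 in an intron, Prp38 one of 75.2 and the kinase gene Prp4k one of 37.0. Prp6, which encodes the U5 protein that bridges to U4/U6, was the only spliceosome gene with no peak within 1 kb in either list.

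The Sm ring, whose proteins are placed on the snRNAs in the cytoplasm, had 2 bound genes of 6. SmD3 had a peak of signal 143.8 at chr2R:12168458-12168877, 63 bp upstream of its start and 180 bp from the antizyme gene Oda, and its relative signal was 0.96, 0.30 and 1.17. SmB had a peak of signal 117.5 at chr2L:10426424-10426843, whose summit was the closest of all to a spliceosome start site at 7 bp, with relative signals of 0.65, 0.31 and 0.71. Replicate 2 was the lowest at both. SmE had a pooled peak of 102.2, SmD2 one of 68.9, SmD1 one of 43.9 and SmF one of 42.0, the last with no matching summit in any replicate. The LSm genes had 1 bound of 3: LSm1 with a peak of signal 145.0 at chr2R:21170714-21171133 and relative signals of 0.83, 0.50 and 0.89. That summit was 252 bp from LSm1 and 77 bp from Xpd, which encodes a helicase of the general transcription factor TFIIH. LSm7 at 107.4 and LSm3 at 74.1 had pooled peaks.

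The U1 group had 2 bound genes of 4, and at both the neighbour's start was nearer. snRNP-U1-C, which encodes a core U1 protein, had a peak of signal 128.5 at chr3R:18983678-18984097, 238 bp from its start and 137 bp from gukh, and its relative signal of 0.35, 0.63 and 1.18 was lowest in replicate 1 and highest in replicate 3. Prp39, named for a yeast U1 protein, had the weakest bound peak, 114.2 at chr3R:28811151-28811570, with relative signals of 0.39, 0.78 and 0.51. Its summit lay 741 bp upstream of Prp39 and 24 bp from wdn, so Prp39 is the bound gene whose assignment depends most on the window. Prp40 at 109.1 and snRNP-U1-70K at 71.9 had pooled peaks. None of the 3 genes of the catalytic steps was bound (0 of 3, Wilson interval 0 to 56.1%): the helicase gene Prp16 had a pooled peak of 70.1, Prp18 of 63.6 and the ubiquitin ligase gene Prp19 of 77.2.

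**Figure D1:**
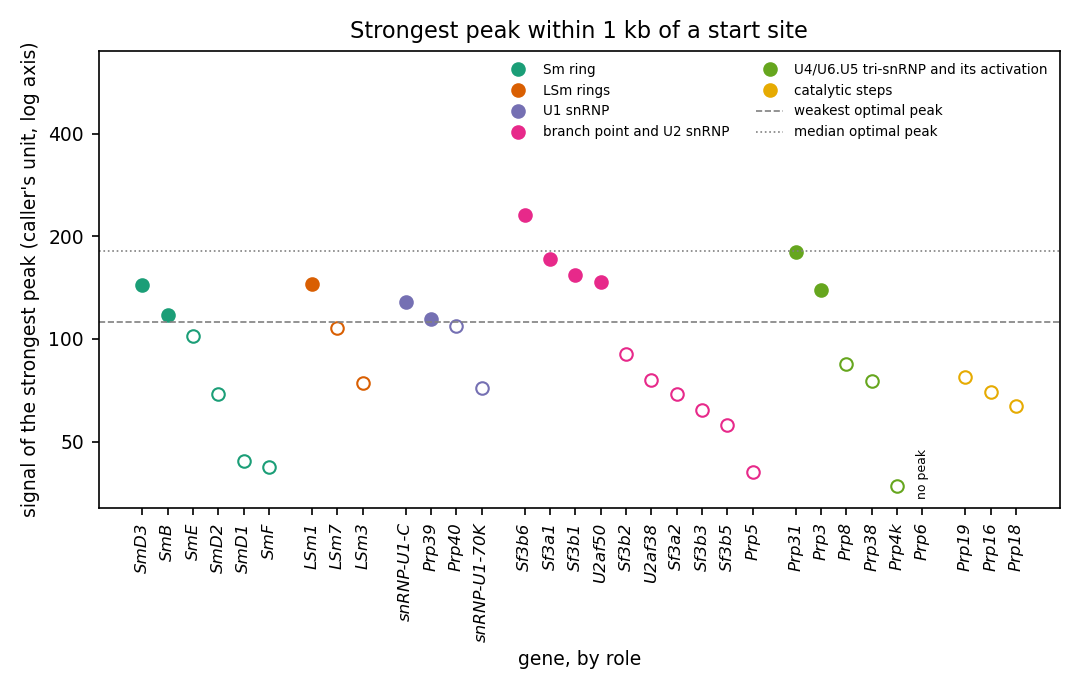
Signal of the strongest peak within 1 kb of a start site for each spliceosome gene, by role, on a log axis in the peak caller's unit; filled points are peaks of the optimal list and open points are peaks of the pooled list only. The 11 filled points lie between 114.2 and 231.6, with 1 above the median optimal peak of 180.6, and Prp6 has no peak.

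**Figure D2:**
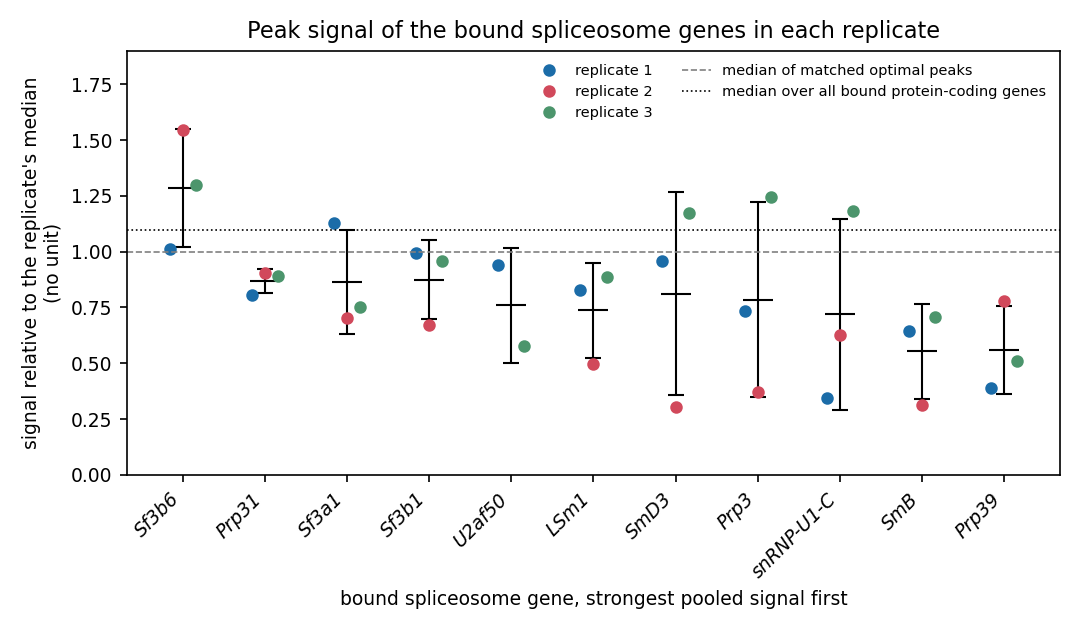
Relative signal of the 11 bound spliceosome genes in each replicate, with the mean and SD as bars; the dashed line is the replicate's median over matched optimal peaks and the dotted line the mean over replicates of the median for all bound protein-coding genes. Sf3b6 is the only gene with all 3 points above the dashed line, and U2af50 has no point for replicate 2.

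The level of the bound peaks was low for the list. The median signal was 145.0 over the 11 genes and 197.0 over all 3125 bound protein-coding genes. At or above the list's median of 180.6 stood 1 of the 11, against 56.7% of all bound genes, and 1224 bound genes (39.2%) had a stronger peak than Sf3b6. The median relative signal of the bound spliceosome genes was 0.83, 0.65 and 0.89 in replicates 1, 2 and 3, a mean of 0.79 ± 0.13 (SD, n = 3), whereas all bound genes had 1.08, 1.11 and 1.10, a mean of 1.10 ± 0.013. The spliceosome genes were lower in 3 of 3 replicates. The optimal list's signal derives from these same replicates, so this is not separate evidence of the lower level. Just inside the threshold of the optimal list stood Prp39 at 114.2 and SmB at 117.5, and just outside it Prp40 at 109.1 and LSm7 at 107.4, the weakest optimal peak having a signal of 112.0.

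The replicates did not rank these genes alike. Taking from each replicate its strongest 3845 peaks, as many as the optimal list holds, 11 spliceosome genes (34.4%) had a summit within 1 kb in replicate 1, against 22.5% of all protein-coding genes. Replicate 2 gave 7 (21.9%) against 21.3%, and replicate 3 gave 15 (46.9%) against 22.9%. The mean was 34.4% ± 12.5 (SD, n = 3) for the spliceosome genes and 22.2% ± 0.82 for all genes. Both shares come from the same replicates, so neither SD is the spread of their difference. That difference varied with the replicate and was not tested. In replicate 2 the share was close to that of all genes. Replicate 2 lacked LSm1, Prp3, SmB, SmD3 and U2af50 and added Sf3b2, and replicate 3 lacked U2af50 and added LSm7, Prp38, Prp40, Prp8 and SmE. Replicate 1 lacked snRNP-U1-C and added Sf3b5. At least 1 replicate listed 18 of the 32 genes, and all 3 listed 5: Prp31, Prp39, Sf3a1, Sf3b1 and Sf3b6.

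The order of the replicates at the peaks was uneven too. Of the 10 bound genes matched in every replicate, replicate 2 was the lowest at 6, replicate 1 at 4 and replicate 3 at 0, whereas over all bound genes replicate 2 was the lowest at 36.7%, replicate 1 at 25.6% and replicate 3 at 37.7%. Of the same 10 genes, replicate 3 was the highest at 5, replicate 2 at 3 and replicate 1 at 2. Over all bound genes the highest was replicate 3 at 31.7%, replicate 2 at 34.9% and replicate 1 at 33.4%. What sets the replicates apart was not tested, and the depth of each is not known here. An optimal peak was then required to be among the strongest 3845 of both other replicates. Without replicate 1 this left 5 of 32 spliceosome genes bound, against 15.3% of all genes. Without replicate 2 it left 8 of 32, against 16.5%, and without replicate 3 it left 4 of 32, against 16.5%. Prp31, Sf3a1, Sf3b1 and Sf3b6 were in each of these sets.

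The summits of the 11 bound genes were placed alike, and the differences from all bound genes given here were not tested. All 11 lay upstream of the spliceosome gene's start site, against 83.6% of all bound genes, and 10 of 11 lay within 500 bp, against 85.2%. The median distance was 83 bp, and 144 bp over all bound genes. By annotation, 9 summits were intergenic, that of SmD3 was in an intron of a longer Oda transcript and that of U2af50 was in the 5′ UTR of PIG-Q. At every one of the 11, the nearest start site of another gene belonged to a protein-coding gene on the opposite strand upstream, a head-to-head pair. No share over all bound genes is given here for the annotation or for this arrangement, so neither is shown to be particular to these genes. The 2 starts on either side of the summit were 85 bp apart for Prp3 and Mi-2, the closest, and 765 bp for Prp39 and wdn, the widest, and the summit lay between them at 11 of 11, against 54.3% of all bound genes. Among bound genes with a head-to-head neighbour within 500 bp it did so at 8 of 8 spliceosome genes, against 71.7% of all.

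Which gene of the pair a peak belongs to cannot be told from position. The spliceosome gene's own start was the nearest at 6 of 11 peaks, those of Prp31, Sf3a1, Sf3b1, Sf3b6, SmB and SmD3, against 62.8% of all bound genes. At the 5 others the neighbour was nearer: Xpd at LSm1, Mi-2 at Prp3, wdn at Prp39, PIG-Q at U2af50 and gukh at snRNP-U1-C. SmB and KdelR, which encodes a receptor that returns proteins to the endoplasmic reticulum, start 260 bp apart, with the summit nearly on the SmB start.

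**Figure D3:**
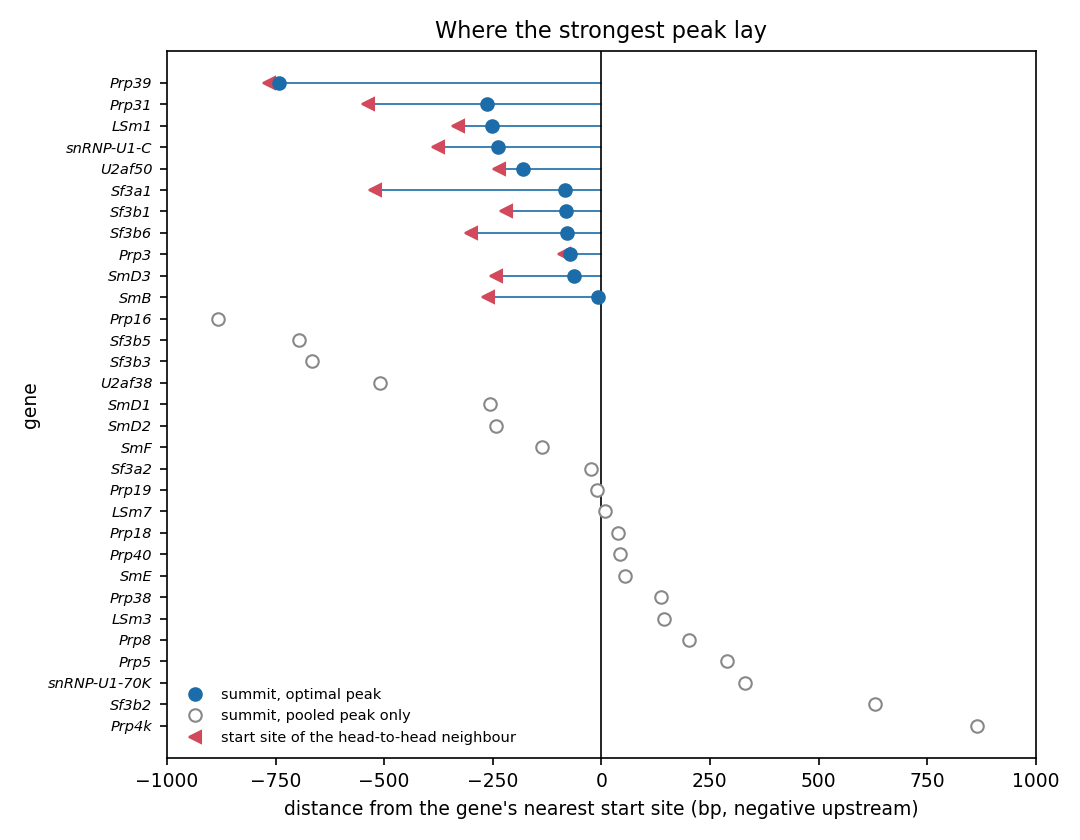
Distance in bp from each spliceosome gene's nearest start site, at 0, to the summit of its strongest peak; filled points are optimal peaks, open points are peaks of the pooled list only, and triangles mark the start site of the head-to-head neighbour nearest to the summit, drawn for the 11 bound genes. All 11 filled points lie between 0 and the neighbour's triangle, whereas 9 of the 20 open points lie upstream.

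Head-to-head promoters were common among the spliceosome genes whether bound or not. Of the 32 genes, 21 (65.6%) had a protein-coding gene starting upstream on the other strand within 500 bp, against 27.4% of all protein-coding genes. Such promoters were bound more often over the whole genome, 42.9% of 3815 genes, than the others, 14.7% of 10130 genes. Of the spliceosome genes with such a neighbour, 8 of 21 were bound (38.1%, Wilson interval 20.8 to 59.1%), and of those without, 3 of 11 (27.3%, 9.75 to 56.6%), namely Prp31, Prp39 and Sf3a1. In a calculation added after the data were seen, if each arrangement had been bound at the rate of all genes, 10.6 of the 32 would have been bound, and 11 were. With a window of 1 kb between the starts, likewise added, 28 of 32 genes had such a neighbour, all 11 bound genes among them, and the number at the rates of all genes was 11.7. The total of 11 was thus close to the number calculated with either window. With a neighbour within 500 bp the share was below that of all genes (38.1% against 42.9%), and without one above it (27.3% against 14.7%). Each Wilson interval is wide and contains the share of all genes of that arrangement. Whether promoter arrangement accounts for the share of spliceosome genes bound was not tested.

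**Figure D4:**
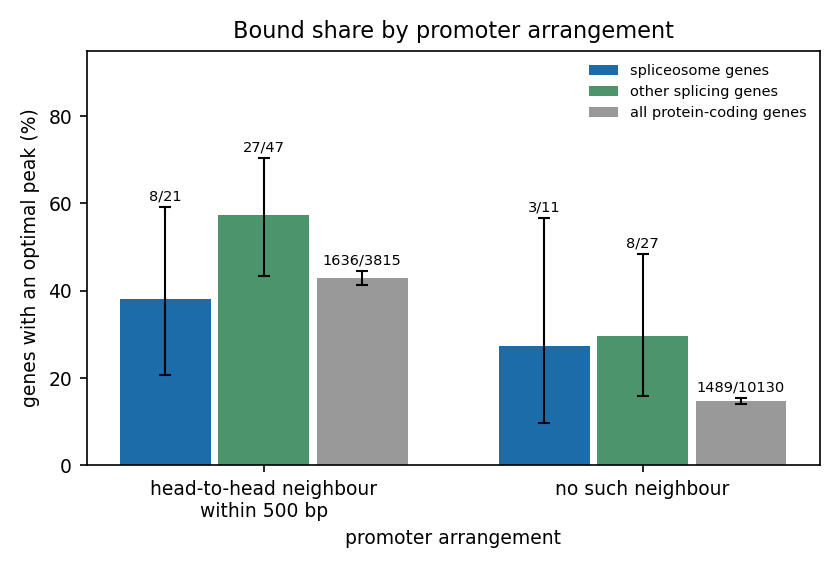
Percent of genes with an optimal peak within 1 kb of a start site, for genes with and without a head-to-head neighbour within 500 bp; bars are shares, error bars 95% Wilson intervals, and the numbers are bound genes of all genes. The interval of the 8 of 21 spliceosome genes with such a neighbour contains the 42.9% of all genes.

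The weaker pooled list placed a peak at nearly every spliceosome gene. A pooled summit lay within 1 kb of 31 of 32 (96.9%, Wilson interval 84.3 to 99.4%), against 63.4% of all protein-coding genes. By arrangement, 20 of 21 with a head-to-head neighbour had one, against 85.0% of all genes of that kind, and 11 of 11 without, against 55.3%. At the rates of all genes by arrangement, 23.9 of the 32 would have had a pooled peak. The pooled list is relaxed and holds background by the authors' design, so such a peak is not a call of binding. Over the 31 genes the median pooled signal was 84.3, near the 79.9 of all 8845 genes with a pooled peak.

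The 20 genes with a pooled peak only had their summits on either side of the start. These summits were upstream at 9 of 20 (45%), against 53.9% of all such genes, and lay between head-to-head starts at 5 of 20 (25.0%), against 22.5%. Among those with a head-to-head neighbour within 500 bp the count was 3 of 12 (25.0%), against 39.6%. By annotation, 7 were in a 5′ UTR, 6 in coding sequence, 3 in an intron and 4 intergenic, again without shares over all such genes. Several sat just inside the gene: LSm7 at 9 bp, Prp18 at 39 bp, Prp40 at 44 bp and SmE at 55 bp downstream of the start. Only LSm7, Prp18 and SmD2 had a matching summit in all 3 replicates, 3 of 20 (15.0%), against 21.0% of all such genes. Of the bound spliceosome genes 10 of 11 had one, against 89.1% of all bound genes. The optimal list was thresholded on reproducibility, so a higher share at bound genes follows from how that list was made. Sf3b5 had an optimal summit 1079 bp from its start, just beyond the window.

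The words searched within 50 bp of the summits were chosen as known promoter and factor words of the fly. TATCGATA, the core of the DNA replication-related element, was in 0 of the 11 windows of the bound spliceosome genes and in 5.63% of those of all bound genes. GGTCACAC, the core of the promoter element called motif 1, was in the Sf3b6 window alone, against 2.78%. TGTTTAC, a forkhead word, was in 0, against 3.71%. GAGAG, the word of the GAGA factor, was in 2, those of Prp3 and Sf3b6, against 9.47%. CAGCTG, an E-box, was in that of SmD3, against 5.41%, and TATAAA in that of SmB, against 13.7%. CGATA was added after the windows had been read, and it is contained in TATCGATA. It was in 6 of 11, those of Prp3, Sf3a1, Sf3b1, Sf3b6, SmB and SmD3, against 28.6% of all bound genes, and in 2 of 11 within 25 bp, against 15.8%, and it is given as a description only. A word is a match of letters and not a site.

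The promoters of all 32 spliceosome genes were taken as 250 bp before to 50 bp after the most upstream start. TATCGATA was in 8 of 32, against 9.36% of all promoters, and GGTCACAC was in 9 of 32, against 7.70%. SmB, snRNP-U1-C and Prp39 were the bound genes among the 8, and Prp3, Sf3b1 and Sf3b6 those among the 9. TGTTTAC was in 4 of 32, those of Prp18, Sf3b5, SmD2 and SmF, none of them bound, against 9.19%. GAGAG was in 4 of 32, against 29.7%, and CAGCTG in 6 of 32, against 17.7%. TATAAA was in 18 of 32, against 45.8%, and CGATA in 23 of 32, against 47.4%.

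Other genes of the splicing machinery were bound at a higher share. From lists of 74 further splicing genes, 35 (47.3%, Wilson interval 36.3 to 58.5%) were bound, against 22.4% of all genes. By promoter arrangement at the rates of all genes, 24.1 would have been. With replicate 2 left out, 22 were bound, against 16.5% of all genes. The gene's own start was the nearest at 21 of the 35, and B52 and Hrb87F counted through 1 shared peak. The SR proteins and their kinases, which choose exons and phosphorylate the SR proteins, had 8 bound of 12, led by the kinase genes Doa at 425.9 and SRPK at 347.4 and by SF2 at 262.3. Other U1 and U2 proteins had 5 of 8, with Phf5a, a further SF3b subunit, at 359.5, the U1 and U2 protein gene snf at 193.8 and CG7564 at 180.5. These are the strongest of each list, and weaker peaks in the same lists, such as SF1 at 141.5, B52 at 142.4 and noi at 116.4, named after their values were seen, were in the range of the spliceosome genes' own. The intervals of the 32 and the 74 genes overlap, and the difference was not tested.

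The hnRNP and splicing repressor genes had 5 bound of 10, with mub at 1006, glo at 414.0 and sm at 305.1. Other proteins of the Prp19 complex and of activation had 8 of 17, led by CG31368 at 215.4, c12.1 at 182.2 and Slu7 at 172.0, and other U4/U6 and U5 proteins 4 of 9, led by CG6686 at 187.7, the helicase gene Brr2 at 167.0 and hoip at 151.4. The exon junction complex had 2 of 6, Acn at 463.0 and tsu at 167.1, and the assembly factors of snRNPs 3 of 12, Smn at 188.8, icln at 167.3 and rig at 119.0. Of the genes named for these lists, glo, CG31368, Slu7, Brr2, hoip, icln and rig had a neighbour's start nearer to the summit. Genes whose symbols fall just outside the rule numbered 6 and were added after the files were read. Of these, SNRPG, whose product is a further protein of the Sm ring, had a peak of signal 376.1, stronger than that of any of the 32, with a relative signal of 2.04 ± 0.81 (SD, n = 3). Its summit lay 373 bp upstream of SNRPG and 176 bp from mthl1. U4-U6-60K was bound too, through the peak of CG7564, which starts nearer to the summit.

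**Figure D5:**
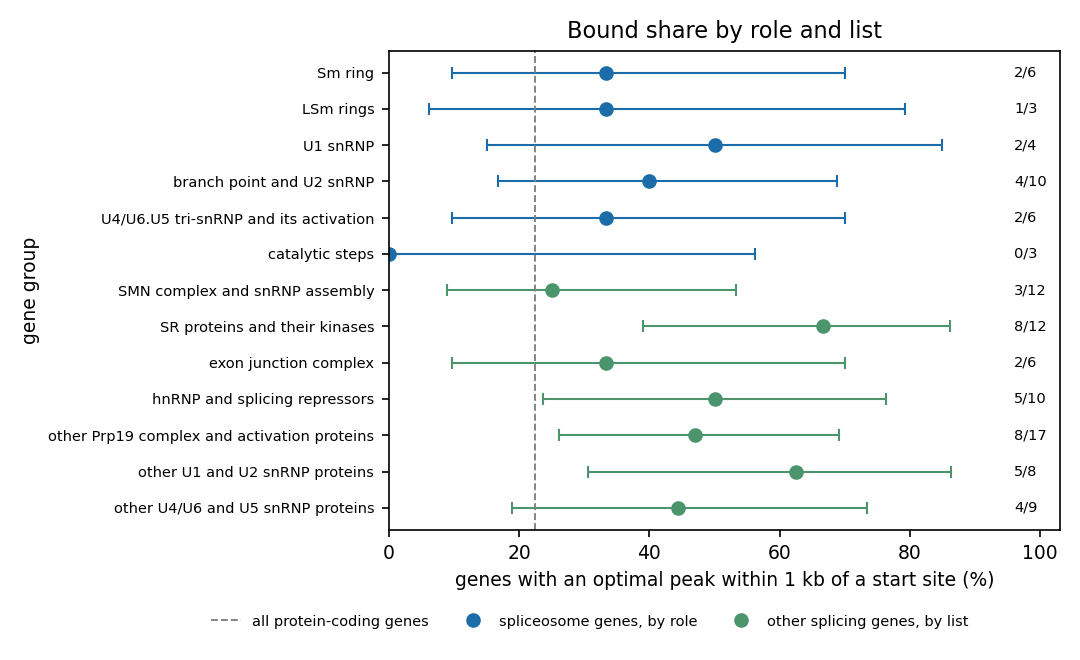
Percent of genes with an optimal peak within 1 kb of a start site by role of the spliceosome genes and by list of other splicing genes, with 95% Wilson intervals and the counts at the right; the dashed line is the 22.4% of all protein-coding genes. The intervals of all 6 roles contain the dashed line, and those of 4 of the 7 lists lie above it, the SR proteins and their kinases highest at 39.1 to 86.2%.

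The RNA partners of these proteins were looked at as well, in an addition made after the data were seen. Of 28 genes of spliceosomal snRNAs, 6 (21.4%, Wilson interval 10.2 to 39.5%) were bound. The share was 9.32% over genes annotated as ncRNA and 22.4% over protein-coding genes. Of the 6, 4 had a matching summit in all 3 replicates, and snRNA:U5:63BC and snRNA:U5:35D had one in 2. The strongest was snRNA:U1:95Ca at 190.9, followed by snRNA:U1:21D at 169.9, snRNA:U4:39B at 167.0, snRNA:U2:34ABb at 165.9, snRNA:U5:63BC at 138.9 and snRNA:U5:35D at 133.3. All 6 summits lay downstream of the snRNA's start, at 54 to 489 bp, whereas all 11 at the spliceosome protein genes lay upstream. At snRNA:U5:35D the start of ND-B17 was nearer. U1, U2, U4 and U5, the classes of the 6 bound genes, each have several near-identical gene copies. No source used here says how reads that match several copies were treated, so which copy carried a signal is uncertain.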

How the data were processed

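ChIP-seq peaks of Jumeau-eGFP were analysed in 3 biological replicates of whole embryos. Per the deposited readme files, the authors made a relaxed list for each replicate and for the pooled replicates, against a shared control alignment, and an optimal list thresholded by the irreproducible discovery rate. The dm6 lists held 30000, 29812 and 3845 peaks. The signal per peak is the authors' deposited value. How peaks were called, the cut-off applied and how deeply each library was sequenced are not stated in any source used here. The dm3 lists were not used here.

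Coordinates are 1-based. Genes came from Ensembl BDGP6.54 release 115 and sequences from RefSeq, with Python 3.11.15, numpy 2.4.6 and pandas 2.3.3. A gene took its strongest peak with a summit within 1 kb of any start site. Replicate summits were matched within 100 bp, and replicate medians were 74.8, 58.1 and 54.5. With 1 group no test between conditions exists. Wilson intervals treat genes as independent and cover counting error only. Position code was tested on simulated data. Members, lists, words and alternatives were chosen with earlier results of these data known. All members are named. The rule gave replicate values for the 10 strongest bound members and any lacking a replicate summit, and Prp39, the weakest, was added after its values were seen. Windows are printed, at most 8, for peaks off arm 2R with the member's own start nearest, and the 3 strongest genes of each other list are named. Of the listed symbols, 2 were left out, 1 as a member and 1 for want of a match.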

Additional observations from a re-analysis of the deposited data

How the results depend on the processing

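The count of bound spliceosome genes, 11 of 32, was 10 of 32 within 500 bp, with 19.7% of all genes bound. With only the most upstream start of each gene it was 11, with 20.9% of all genes bound. Within 5 kb it rose to 18, 13 of them upstream and 4 with their own start nearest, with 40.2% of all genes bound. In the stronger 50% of the optimal list it fell to 1, Sf3b6, which was upstream and nearest to its own start, with 12.7% of all genes bound, and the other splicing genes fell from 35 to 16. Peaks among the strongest 3845 of all 3 replicates left 4 of 32 spliceosome genes bound, all 4 upstream, with 14.2% of all genes bound. They left 20 of the 74 other splicing genes bound. Leaving out 1 replicate in turn gave 4 to 8 bound spliceosome genes of 32, 4 to 8 upstream and 4 to 6 with their own start nearest. The other splicing genes bound were then 22 to 26, with 15.3% to 16.5% of all genes bound. The median relative signal was then 0.74 to 0.86. The pooled count was 28 within 500 bp, against 52.1% of all genes, and 32 within 5 kb, against 88.7%. The median relative signal was 0.75 and 0.78 with matching within 50 and 200 bp. Words moved with the window: GGTCACAC was in 0 of the 11 windows within 25 bp of the summit, against 1.41% of all bound genes, and in 4 within 100 bp, against 6.72%. The causes of these moves were not tested. No paired analysis was possible because there was 1 group. Depth is unknown. A gene without an optimal peak within 1 kb had a weaker pooled peak there or, like Prp6, none, and it is not shown to be unbound.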
